A study of Mus musculus with 8 samples.

Results

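The genes described are *Tshb*, which encodes the beta subunit of thyrotropin, its overlapping neighbour *Tspan2*, and 6 further genes through which thyrotropin and thyroid hormone act: *Tshr*, *Slc16a10*, *Dio2*, *Dio3*, *Thra* and *Thrb*. They are 8 of the 40840 genes in the count tables, found by symbol, and 7 of the 8 passed the filter on low counts. *Tshb* was picked because it was higher in *Tra2b-cPEko* testes in these same counts, so its difference is given as a description with no test. The RNAseq libraries came from whole testes at P12 (12 days of age), each from a different mouse on a C57BL/6J background, and 4 mice (A to D) were wild type and 4 *Tra2b-cPEko*.

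*Tra2b-cPEko* mice were *Tra2b* fl/- with *Vasa-Cre*, where the floxed segment is the poison exon of *Tra2b*, an exon whose inclusion stops the transcript from making full-length protein. The mice called wild type were *Tra2bPE* fl/+, without *Vasa-Cre*, so they too carried a floxed allele. *Vasa-Cre* is active in germ cells only. Sertoli, Leydig and other somatic cells of *Tra2b-cPEko* testes therefore kept the poison exon on the floxed allele, beside an allele deleted in every cell. The Cre line was made on an FVB background and then backcrossed, and only the *Tra2b-cPEko* group carried it. Labels and methods name no batch or litter.

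Thyrotropin is a pituitary hormone made of a beta subunit of its own, from *Tshb*, and an alpha subunit from *Cga* that it shares with luteinizing and follicle-stimulating hormone. It acts on its receptor in the thyroid gland, which then releases mostly thyroxine. In target cells, transporters bring thyroid hormone across the membrane, Dio2 converts thyroxine to active triiodothyronine, Dio3 inactivates both, and the nuclear receptors Thra and Thrb control transcription. In the young testis, triiodothyronine is known for ending the division of Sertoli cells and promoting their maturation, mainly through Thra.

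The start of *Tshb* is shown with those of *Dio2* and *Dio3* because these 3 genes share a TATAAA core close to the start of transcription. The sequences are the 250 bases before the RefSeq start on GRCm38.p6, written 5′ to 3′ on the strand of the gene, with matched motifs in capitals.
*Tshb*, chr3:102782715-102782964, minus strand: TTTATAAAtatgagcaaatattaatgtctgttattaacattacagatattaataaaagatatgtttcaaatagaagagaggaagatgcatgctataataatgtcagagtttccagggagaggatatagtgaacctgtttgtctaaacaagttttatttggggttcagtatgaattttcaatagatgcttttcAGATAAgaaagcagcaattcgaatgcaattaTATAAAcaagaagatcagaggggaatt
*Dio2*, chr12:90739039-90739288, minus strand: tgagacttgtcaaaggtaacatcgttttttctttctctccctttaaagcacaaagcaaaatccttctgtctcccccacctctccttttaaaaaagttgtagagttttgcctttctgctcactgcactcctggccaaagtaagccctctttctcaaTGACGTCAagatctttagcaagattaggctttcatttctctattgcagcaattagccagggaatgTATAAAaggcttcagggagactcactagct
*Dio3*, chr12:110278980-110279229, plus strand: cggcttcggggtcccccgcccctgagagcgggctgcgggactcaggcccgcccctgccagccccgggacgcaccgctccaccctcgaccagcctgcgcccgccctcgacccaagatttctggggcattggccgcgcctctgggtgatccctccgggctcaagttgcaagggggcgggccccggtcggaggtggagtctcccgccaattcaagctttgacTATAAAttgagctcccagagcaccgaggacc

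Windows of this kind were matched for 6 of the 8 genes (8 windows), and 4 motifs were searched on both strands. TATAAA began 27 bases before the start of *Tshb*, 30 before that of *Dio2* and 31 before that of *Dio3*. Of the 32851 RefSeq promoter windows, 12.4% hold it at any position on either strand. The share of windows with it at such a distance was not computed. *Tshb* has further matches at the far end of its window, where TATAAA on the strand shown, 248 bases before the start, overlaps a match on the opposite strand. AGATAA, the core bound by GATA factors, began 58 bases before the start of *Tshb* and is present in 9.99% of windows. *Dio2* holds the full cAMP response element TGACGTCA, which begins 95 bases before its start and is present in 1.55% of windows. AGGTCA, the half-site of nuclear receptors, was found in 1 of the *Thrb* windows and is present in 14% of all windows. A second *Thrb* window has TATAAA 167 bases before its start, and the windows of *Tspan2* and *Slc16a10* have none of the 4 motifs.

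*Tshb* was higher in every *Tra2b-cPEko* testis than in any wild type testis. In counts per 1000000 reads on genes (CPM, on library sizes scaled by TMM factors), wild type mice A to D had 1.88, 2.29, 1.60 and 2.46. *Tra2b-cPEko* mice A to D had 5.19, 4.44, 5.58 and 5.86 CPM. The groups did not overlap, and the lowest *Tra2b-cPEko* value was 1.81 times the highest wild type value. These levels rest on 76 to 145 reads per wild type library and 163 to 261 per *Tra2b-cPEko* library. The exact 95% interval for counting error reached up to 2.89 CPM in the highest wild type library. In the lowest *Tra2b-cPEko* library it reached down to 3.78 CPM. Such intervals leave out differences between mice and use the reads that chose *Tshb*, so they are no separate support. The means were 2.06 ± 0.391 CPM (SD, n = 4) and 5.27 ± 0.615 CPM (SD, n = 4), a fitted fold of 2.55 (log2 fold change 1.35, standard error 0.15). Over 17 other settings the log2 fold change lay between 1.25 and 1.45. Over all 19104 genes tested, edgeR called 0.157% at an adjusted p under 0.05, and the groups did not overlap in 8.54%. The 6 tested genes besides *Tshb* were not called and their groups overlapped. In whole testes, a change in the number of cells of a type and a change in RNA per cell cannot be told apart. The counts do not show which cells hold the *Tshb* reads.

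**Figure D1:**
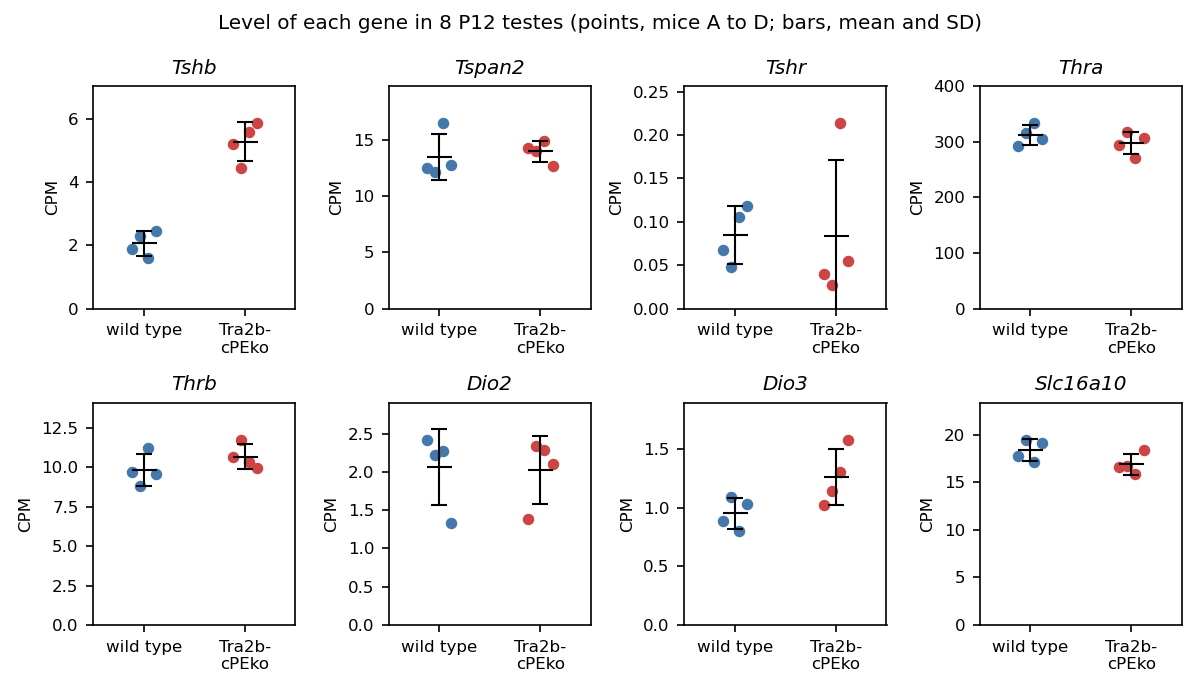
CPM of each of the 8 genes (vertical axes, each with its own scale from 0) in wild type (blue) and *Tra2b-cPEko* (red) testes, 1 point per mouse in the order A to D, with the mean and SD as bars. *Tshb* separates the genotypes (1.60 to 2.46 against 4.44 to 5.86 CPM), whereas the points of the other 7 genes overlap.

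*Tshb* lies on chromosome 3 of GRCm39 from 102682781 to 102690034 on the minus strand, inside the span of *Tspan2* (102641813 to 102708829, plus strand), which encodes a tetraspanin membrane protein. The overlap rests on 1 of the 11 *Tspan2* transcripts of GENCODE vM39, which runs from 102666626 to 102708829. The other 10 end at or before 102679798, short of *Tshb*. The genes share 0 bases of exon, and in RefSeq on GRCm38.p6 they do not overlap at all but lie 5087 bp apart. A retained-intron transcript of *Tshb* reaches from 102682781 to 102687176, past the 102684714 end of its coding transcripts.

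*Tspan2* had 12.5, 12.1, 16.5 and 12.7 CPM in wild type mice A to D and 14.3, 14.0, 14.9 and 12.7 CPM in *Tra2b-cPEko* mice A to D. The highest and the lowest values were both from wild type mice. The fitted log2 difference was 0.05 with a standard error of 0.10 and an approximate 95% interval of -0.14 to 0.25. In edgeR's quasi-likelihood test it had an adjusted p of 0.839. The exact permutation p, two-sided over 70 arrangements of the mice with a smallest possible p of 0.0286, was 0.6. *Tspan2* shares 189 bases of exon with the antisense gene *Tspan2os*, which had at most 0.150 CPM in any mouse. Whether counting used the strand is not stated, so how reads of these bases were assigned is not known.

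Of the reads on *Tshb* and *Tspan2* together, *Tshb* took 13.1%, 15.9%, 8.84% and 16.2% in wild type mice A to D. In *Tra2b-cPEko* mice A to D its share was 26.7%, 24.1%, 27.2% and 31.5%. The shares did not overlap, with means of 13.5% ± 3.41 (SD, n = 4) and 27.4% ± 3.09 (SD, n = 4). Exact binomial 95% intervals reached at most 19.0% in a wild type library and at least 20.9% in a *Tra2b-cPEko* library. This share uses the *Tshb* reads that chose the gene and is no separate support.

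The other genes around *Tshb* were compared between genotypes too. Those named below all lie at higher coordinates than *Tshb*. Within 500 kb of *Tshb*, GENCODE lists 46 genes, 17 of them in the count table, and 10 besides *Tshb* were tested. None of the 10 was called at an adjusted p under 0.05 by edgeR or DESeq2, 2 had an unadjusted p under 0.05, and over all 19104 genes tested edgeR called 0.157% and 15.3% had an unadjusted p under 0.05. Their log2 fold changes lay between -0.13 and 0.48, with a median of -0.01.

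The nearest tested gene beyond the overlap is *Sycp1*, a synaptonemal complex gene on the same strand 35.7 kb away. Its level was 314 ± 42.4 CPM in wild type against 301 ± 21.8 CPM in *Tra2b-cPEko* testes (SD, n = 4 each), with a log2 fold change of -0.06 (edgeR adjusted p = 0.778). *Nr1h5*, a nuclear receptor gene 157 kb away, was the gene with the largest value of the 10. It had 2.29, 2.22, 2.27 and 1.69 CPM in wild type and 3.29, 2.34, 3.21 and 2.94 CPM in *Tra2b-cPEko* mice A to D. Its groups did not overlap, as in 8.54% of all genes tested, and the log2 fold change of 0.48 (standard error 0.15) had an edgeR adjusted p of 0.175. The 2 genes with an unadjusted p under 0.05 were *Nr1h5* and the splicing factor gene *Bcas2*, at a log2 fold change of -0.13 (edgeR adjusted p = 0.285). *Sike1*, *Nras*, *Dennd2c* and *Trim33* had log2 fold changes from -0.08 to 0.06, and their groups overlapped.

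**Figure D2:**
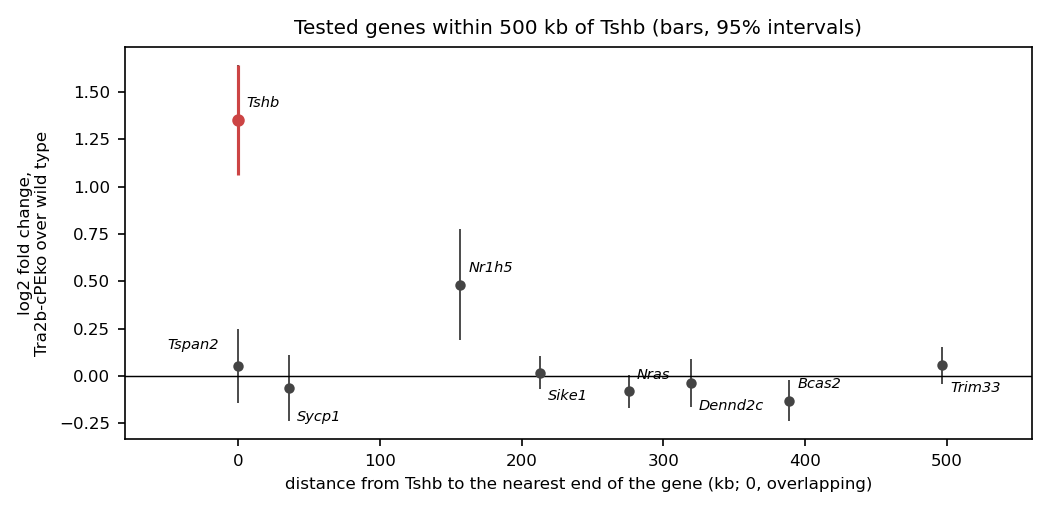
Log2 fold change (vertical axis, *Tra2b-cPEko* over wild type, bars of approximate 95% intervals) of tested genes within 500 kb of *Tshb* against distance from *Tshb* in kb (horizontal axis, towards higher coordinates). *Tshb* (red) stands at 1.35 and the other genes shown between -0.13 and 0.48. The bar of *Tshb* uses the reads that chose the gene, so it is a description and no test.

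The partner of thyrotropin beta was scarcely detected, and related hormone genes were low or near absent. *Cga*, the alpha subunit without which no thyrotropin is formed, had 2 reads in all 8 mice together, and *Fshb* had 1. *Lhb*, the beta subunit of luteinizing hormone, had 1.42 ± 0.148 CPM in wild type against 1.23 ± 0.0996 CPM in *Tra2b-cPEko* testes (SD, n = 4 each), with a log2 fold change of -0.21 (edgeR adjusted p = 0.522). *Gpha2*, which encodes the alpha subunit of thyrostimulin, had 0.485 ± 0.161 CPM and 0.395 ± 0.0844 CPM (SD, n = 4 each), and *Gphb5*, its beta subunit, had 7 reads in all. *Trh*, the hypothalamic hormone that releases thyrotropin, had 68 reads in all mice, and its receptor *Trhr* had 0 reads. A count of 0 allows up to 3 reads in a library, so *Cga*, *Fshb*, *Gphb5* and *Trhr* were at or near the limit of detection.

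Markers of the anterior pituitary, where thyrotropin is made, were likewise low. The summed level of 11 marker genes ranged from 3.74 to 4.40 CPM in wild type and from 2.89 to 3.95 CPM in *Tra2b-cPEko* testes, and the groups overlapped. All 4 tested markers were fitted lower (median log2 fold change -0.27). None was called by edgeR or DESeq2, which called 0.157% and 2.79% of all genes. *Pou1f1*, the transcription factor that activates *Tshb* in the pituitary, and *Prl* had 0 reads in every mouse, whereas *Gh* had 26 in all. *Pomc* and *Lhb* were its most abundant members.

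*Tshr*, the thyrotropin receptor, was at the floor of detection. Its reads in wild type mice A to D were 3, 2, 5 and 7, and in *Tra2b-cPEko* mice A to D they were 2, 1, 10 and 2. These 32 reads were too few to pass the filter, and no difference was detectable at this depth. The other glycoprotein hormone receptors were well expressed. *Fshr*, the Sertoli cell receptor for follicle-stimulating hormone, had 23.4 ± 2.24 CPM in wild type and 25.5 ± 0.856 CPM in *Tra2b-cPEko* testes (SD, n = 4 each), with an edgeR adjusted p of 0.414. *Lhcgr*, the luteinizing hormone receptor of Leydig cells, had 23.7, 24.5, 27.7 and 20.4 CPM in wild type and 29.4, 37.2, 37.6 and 28.4 CPM in *Tra2b-cPEko* mice A to D. Its groups did not overlap, as in 8.54% of all genes tested. The log2 fold change of *Lhcgr* was 0.46 (standard error 0.12), and the edgeR adjusted p was 0.131 against 0.00851 in DESeq2, so the call depended on the tool.

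The transporter *Slc16a10*, which carries thyroid hormone and aromatic amino acids, lies on chromosome 10 from 39909448 to 40018304. It had 17.8, 19.5, 17.1 and 19.2 CPM in wild type and 16.6, 16.7, 15.9 and 18.4 CPM in *Tra2b-cPEko* mice A to D. *Tra2b-cPEko* mice A, B and C lay below all wild type mice, and mouse D among them. The log2 fold change was -0.12 (standard error 0.07, interval -0.26 to 0.01), with an edgeR adjusted p of 0.423 and an exact permutation p of 0.143. Of 12 transport and binding genes 7 were tested and none was called by edgeR (0.157% of all genes), with a median log2 fold change of -0.02 beside -0.00108 over all genes tested. *Slc7a5* and *Slc3a2*, the chains of an amino acid transporter that also takes up thyroid hormone, had 530 ± 18.2 against 523 ± 14.0 CPM and 246 ± 9.55 against 254 ± 9.75 CPM (SD, n = 4 each).

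The deiodinases were expressed at low levels, and no difference passed the test. *Dio2* (chromosome 12, 90691322 to 90705819) had 2.42, 2.22, 2.27 and 1.34 CPM in wild type and 1.38, 2.34, 2.29 and 2.10 CPM in *Tra2b-cPEko* mice A to D. In each genotype 1 mouse, wild type D and *Tra2b-cPEko* A, lay well below the other 3. The log2 fold change was -0.02 (standard error 0.21, edgeR adjusted p = 0.971, exact permutation p = 0.857), with an interval of -0.44 to 0.39, and its fitted sign changed between settings.

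*Dio3* (chromosome 12, 110245502 to 110247531) had 0.882, 1.09, 0.799 and 1.03 CPM in wild type and 1.02, 1.14, 1.30 and 1.58 CPM in *Tra2b-cPEko* mice A to D. *Tra2b-cPEko* mice B, C and D lay above all wild type mice and mouse A lay among them. Its log2 fold change of 0.40 (standard error 0.18) was the largest of the 7 tested genes after that of *Tshb*, with an interval of 0.05 to 0.76. The unadjusted edgeR p was 0.0451, the adjusted p 0.316 and the exact permutation p 0.0857, so the difference did not pass. *Dio3os*, transcribed from the neighbouring opposite strand, had 0.576 to 0.778 CPM in wild type and 0.409 to 1.09 CPM in *Tra2b-cPEko* testes (edgeR adjusted p = 0.476). *Dio1*, the deiodinase of liver and kidney, had 38 reads in all. The 5 tested genes that insert selenocysteine into the deiodinases, among them *Secisbp2*, *Sepsecs* and *Eefsec*, had log2 fold changes from -0.11 to -0.01.

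*Thra* (chromosome 11, 98629109 to 98661924) was by far the most abundant of the 8 genes. It had 292, 316, 334 and 305 CPM in wild type and 295, 318, 271 and 306 CPM in *Tra2b-cPEko* mice A to D, and the groups overlapped. The log2 fold change was -0.07 (standard error 0.06, interval -0.18 to 0.04), with an edgeR adjusted p of 0.591 and an exact permutation p of 0.4. Exons of *Thra* share 1694 bases with *Nr1d1*, a clock gene on the other strand, which had 27.9 to 32.8 CPM in wild type and 30.7 to 35.3 CPM in *Tra2b-cPEko* testes. Whether counting used the strand is not stated, so how reads of the shared stretch were assigned is not known.

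*Thrb* (chromosome 14, 4429815 to 4809435) had 9.71, 8.80, 11.2 and 9.57 CPM in wild type and 10.7, 11.7, 10.3 and 9.91 CPM in *Tra2b-cPEko* mice A to D. The highest wild type value lay above 3 of the *Tra2b-cPEko* values. Its log2 fold change was 0.12 (standard error 0.09, interval -0.06 to 0.29), with an edgeR adjusted p of 0.559 and an exact permutation p of 0.229.

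All 17 receptor and partner genes were tested and none was called by edgeR, which called 0.157% of all genes, with 10 fitted higher, 7 fitted lower and a median log2 fold change of 0.04. The coactivator *Ncoa2* had 343 ± 36.0 and 379 ± 15.9 CPM (SD, n = 4 each). The coactivator *Ncoa1* did not overlap between genotypes, as in 8.54% of all genes tested. It had 80.8 to 90.4 CPM in wild type and 91.2 to 99.3 CPM in *Tra2b-cPEko* testes, with a log2 fold change of 0.14 (edgeR adjusted p = 0.215).

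Genes that respond to thyroid hormone in other tissues were tested in full (12 of 12), and none was called by edgeR, against 0.157% of all genes. Their median log2 fold change was 0.12, beside -0.00108 over all genes tested, and 10 of the 12 were fitted higher in the *Tra2b-cPEko* mice. *Klf9*, a direct target in many tissues, had 98.7 ± 8.04 and 107 ± 5.19 CPM (SD, n = 4 each) and an edgeR adjusted p of 0.371. The hairless corepressor gene *Hr*, chosen after its values were seen, had 26.6, 25.7, 27.1 and 34.3 CPM in wild type and 35.8, 36.2, 33.8 and 33.6 CPM in *Tra2b-cPEko* mice A to D. Wild type mouse D reached the *Tra2b-cPEko* range, and the log2 fold change of *Hr* was 0.29 (edgeR adjusted p = 0.148). The edgeR adjusted p was 0.0279 in the fit without that mouse, whose value closed the gap between genotypes. With any other single mouse left out, *Hr* was not called. *Bcl3*, a regulator of NF-kappaB, did not overlap, as in 8.54% of all genes tested. It had 20.9 to 27.9 CPM in wild type and 28.7 to 31.2 CPM in *Tra2b-cPEko* testes (log2 fold change 0.27, edgeR adjusted p = 0.182). The 3 most abundant genes, *Me1*, *Atp2a2* and *Gja1*, had log2 fold changes of -0.06, -0.03 and 0.01.

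Of the 12 genes for hormone synthesis in the thyroid, 6 were tested, and edgeR called none (0.157% of all genes) and DESeq2 called 1 (2.79% of all genes), with 5 fitted lower and a median log2 fold change of -0.26. *Tg*, the precursor on which thyroid hormone is built, had 8.21, 8.59, 8.06 and 7.73 CPM in wild type and 6.33, 6.67, 5.60 and 5.83 CPM in *Tra2b-cPEko* mice A to D. Its groups did not overlap, as in 8.54% of all genes tested. The log2 fold change of *Tg* was -0.41 (standard error 0.09), and the edgeR adjusted p of 0.0844 was the smallest of the pathway genes, against 0.00369 in DESeq2. *Slc5a5*, the iodide carrier, had 5.34 ± 1.13 and 4.22 ± 0.532 CPM (SD, n = 4 each), with an edgeR adjusted p of 0.324. *Pax8* was high in 1 library, at 9.32 CPM in *Tra2b-cPEko* mouse C and 0.905 to 4.44 CPM in the other 7 mice.

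Across the 7 lists, all 73 genes were in the table and 54 were tested, 53 of them besides *Tshb*. None of the 53 was called by edgeR, 2 were called by DESeq2 (*Lhcgr* and *Tg*), and 9 (17.0%) had an unadjusted p under 0.05, beside 0.157%, 2.79% and 15.3% of all genes tested. The groups did not overlap in 4 (7.55%), beside 8.54% of all genes. Fitted differences were split, 27 higher and 26 lower, with a median log2 fold change of 0.01. The shares of pathway genes thus lay near those of all genes.

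**Figure D3:**
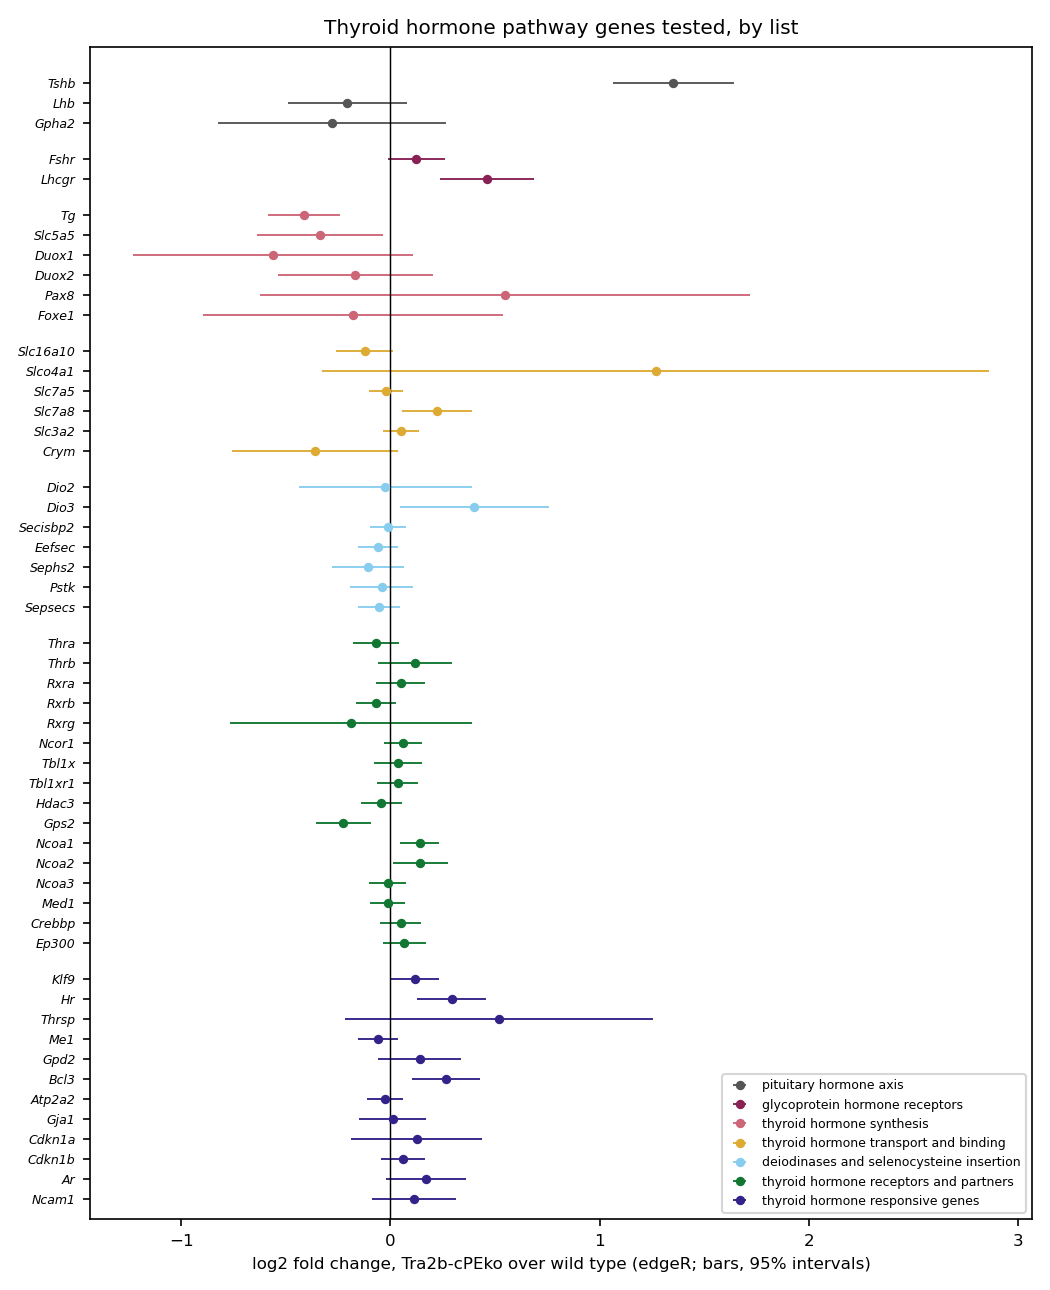
Log2 fold change (horizontal axis, *Tra2b-cPEko* over wild type, bars of approximate 95% intervals) of tested pathway genes, grouped and coloured by list. *Tshb* at 1.35 is the largest value, and its bar uses the reads that chose the gene, so it is no test. The wide bars of *Slco4a1* and *Pax8* come with 1 library, *Tra2b-cPEko* mouse C, that is far above the others. For *Pax8*, wild type mouse A (0.905 CPM) also lies well below the other wild type mice.

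Levels of different genes were compared per kb of transcript. Per kb of merged exons, the order in wild type testes was *Thra* (39.3 CPM per kb), *Tspan2* (2.38), *Slc16a10* (2.30), *Thrb* (1.07), *Dio3* (0.468), *Tshb* (0.452), *Dio2* (0.321) and *Tshr* (0.0117). The values of *Tspan2* overlapped those of *Slc16a10*, and those of *Tshb* overlapped both *Dio3* and *Dio2*, so neither order is resolved by these mice. In *Tra2b-cPEko* testes *Tshb* stood at 1.16 CPM per kb, overlapping *Thrb* (1.16) and above *Dio3* (0.622), with no other change of order.

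The place of *Tshb* depended on the length assumed. Its merged exons span 4555 bp, mostly the retained-intron transcript, whereas its longest protein-coding transcript has 649 bp. Per kb of the longest protein-coding transcript, *Tshb* had 3.17 ± 0.602 CPM per kb in wild type (SD, n = 4), between *Slc16a10* (3.32) and *Tspan2* (2.86) and overlapping both. In *Tra2b-cPEko* testes it had 8.12 ± 0.947 CPM per kb (SD, n = 4), second to *Thra* (60.6) and above *Slc16a10* (3.06) with no overlap. The counts do not show which transcript the reads came from.

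**Figure D4:**
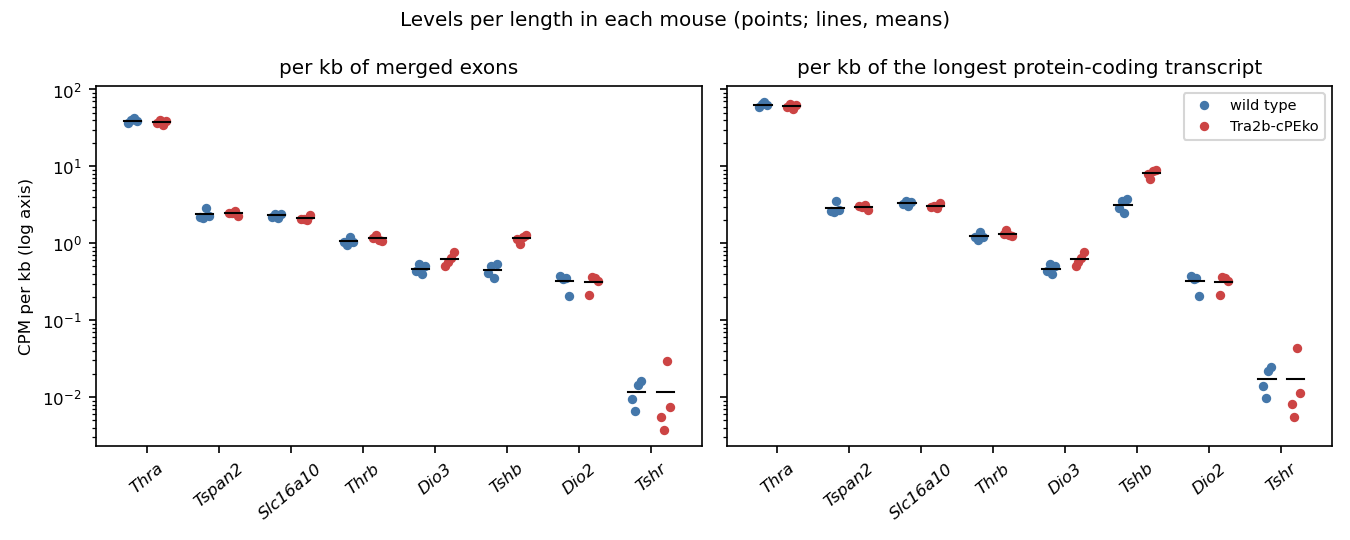
Level of the 8 genes in each mouse (points, wild type blue and *Tra2b-cPEko* red; lines, means) in CPM per kb on a log axis, per kb of merged exons (left) and of the longest protein-coding transcript (right). *Thra* is highest in both panels and *Tshr* lowest, while wild type *Tshb* moves from 0.452 to 3.17 CPM per kb with the length used.

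Libraries held 36757386 to 59101569 reads on genes. *Tra2b* itself had 156 to 176 CPM in wild type and 190 to 209 CPM in *Tra2b-cPEko* testes (adjusted p = 0.0552 in edgeR and 0.000195 in DESeq2), and counts per gene do not resolve its poison exon. Reads that fell on no gene, as a percentage of reads on genes, were 18.0% to 18.8% in wild type and 19.6% to 20.4% in *Tra2b-cPEko* libraries, so this measure separated the genotypes as *Tshb* did, and its part in the difference of *Tshb* was not tested. Summed markers of macrophages were 149 to 186 CPM in wild type and 186 to 222 CPM in *Tra2b-cPEko* testes, with 11 of 11 genes fitted higher, none called by edgeR and 2 called by DESeq2. Leydig cell markers summed to 660 to 730 CPM and 681 to 942 CPM, with 7 of 10 genes fitted higher, none called by edgeR, 2 called by DESeq2 and a median log2 fold change of 0.40, and this list includes *Lhcgr*. Sertoli cell markers summed to 8038 to 8523 CPM and 7983 to 8827 CPM, with a median of -0.04. Markers of differentiating spermatogonia summed to 818 to 883 CPM in wild type and 697 to 816 CPM in *Tra2b-cPEko* testes, without overlap. Of these 9 genes, edgeR called 1 lower (*Sohlh1*) and DESeq2 called 2. Leptotene and zygotene markers had 12 of 15 genes fitted lower (median log2 fold change -0.15), with 0 called by edgeR and 2 by DESeq2. Pachytene markers had 10 of 12 tested genes fitted lower (median -0.19) and 0 called by either. Markers of undifferentiated spermatogonia had 6 genes fitted higher and 6 lower. The sums of these other germ cell lists overlapped between genotypes. Over all genes tested by each, edgeR called 0.157% and DESeq2 2.79%. Groups did not overlap in 8.54% of single genes tested, and no such share was computed for sums. The part of these cell types in the values above was not tested.

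*Tra2b-cPEko* mouse C stood apart, with 244 CPM of epididymal epithelium markers against 1.71 to 2.92 CPM in the other 7 mice, among them 107 CPM of *Crisp1*. Without this mouse the log2 fold change of *Tshb* was 1.32 (standard error 0.16), a fold of 2.50, and no pathway gene was called. This mouse also had the most *Tshr* reads (10) and the highest *Pax8* and *Slco4a1* levels.

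**Figure D5:**
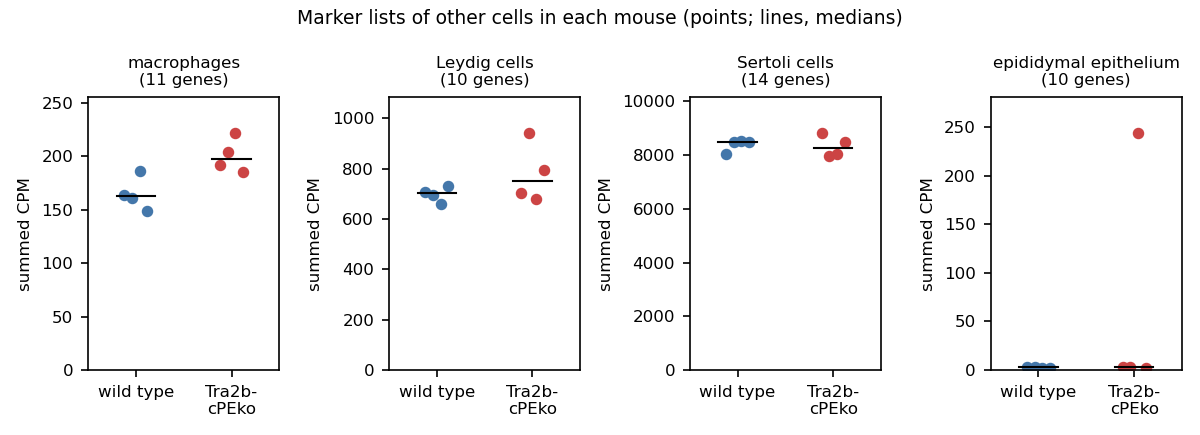
Summed CPM (vertical axes from 0) of the marker lists of macrophages, Leydig cells, Sertoli cells and epididymal epithelium in each wild type (blue) and *Tra2b-cPEko* (red) mouse, with medians as lines. Values overlap between genotypes in all 4 panels, and *Tra2b-cPEko* mouse C stands alone at 244 CPM of epididymal markers.

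The genes whose log2 CPM followed *Tshb* most closely over the 8 mice were *Gm32144* (r = 0.98), *Brinp1* (0.98), *Atp2a1* (0.98), *Card9* (0.97) and *Tra2b* (0.97). All 5 had higher means in *Tra2b-cPEko* testes, from 164 to 198 CPM in *Tra2b*, and the correlation includes the difference between genotypes. Taking deviations from the genotype means instead, the closest were *Med16* (0.99), *Angptl6* (0.98), *Gm41884* (0.97), *Acad12* (0.97) and *Rnf10* (0.97), and the lists share no gene. Of the other tested members, *Dio3* had the highest correlation with *Tshb*, at 0.82 over all mice and 0.77 by deviations. By deviations *Slc16a10* had 0.70, whereas *Thrb*, *Tspan2*, *Dio2* and *Thra* had -0.88, -0.67, -0.46 and -0.45. The value of *Thrb* was thus larger in size than that of *Dio3*. The points share libraries and depth, so these are descriptions over 8 mice.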

How the data were processed

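Stranded mRNA libraries of whole P12 testes were sequenced as read pairs, and the authors deposited raw counts of reads per gene, 1 table per mouse, with 5 summary lines that were left out of library sizes and tests. The submitters' processing notes name HISAT2 2.2.1, SAMtools 1.7.1, HTSeq 2.0.2 and deepTools 3.5.1 with GRCm39, whereas the methods describe Salmon. The summary lines are those of htseq-count, and its strand setting is not given in the sources used here. Ambiguous reads were 0.681% to 0.957% of reads on genes.

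Counts were analysed with edgeR 4.0.16 in R 4.3.3 (filterByExpr with least count 10 and total 15, TMM factors, robust quasi-likelihood F-test, genotype as the only term), with Benjamini-Hochberg adjustment over 19104 genes, calling an adjusted p under 0.05. Intervals of log2 fold changes are normal approximations from the standard error. CPM were computed on scaled library sizes. Tests were checked on simulated counts. Alternatives were DESeq2 1.42.0, limma-voom (limma 3.58.1), other factors, filters and thresholds, a replicate block and each mouse left out. The level per protein-coding transcript was added after seeing the data.

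The members, the 7 pathway lists and the 13 marker lists were chosen with earlier results of these data known. Genes named are the members, pathway genes called or without overlap, the 3 most abundant of a list, those with 0 reads, genes within 500 kb of *Tshb* and the 5 most like *Tshb* by each of 2 correlations. *Hr*, *Pax8*, *Slco4a1* and others outside this rule were named after their values were seen. Results for some single genes are not reported here. Positions and lengths are from GENCODE vM39 (GRCm39), and promoter windows from RefSeq (GRCm38.p6). Exons of *Thra*, *Thrb*, *Dio2*, *Tspan2*, *Tg*, *Hr*, *Ncoa1* and *Bcl3* share bases with genes on the other strand. The mice were independent animals, and p-values rest on 4 per genotype. Counting intervals cover counting error only. Scripts ran in Python 3.11.15 with pandas 2.3.3, scipy 1.17.1 and matplotlib 3.10.9.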

Additional observations from a re-analysis of the deposited data

Results flagged for a closer look

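In 8 of 56 groups of 4 mice examined, 1 mouse lay further from the others than Dixon's criterion at the 95% level allows, where chance gives about 1 in 20, or 2.8 groups. Among the 8 genes these were *Tspan2* in wild type mouse C (16.5 CPM) and *Tshr* in *Tra2b-cPEko* mouse C (0.214 CPM, from 10 reads). *Tra2b-cPEko* mouse C also had the outlying sums of epididymal epithelium markers (244 CPM) and thyroid follicle markers (19.1 CPM). The remaining sums were those of thyroid hormone synthesis genes in wild type mouse B (21.6 CPM), Sertoli cell markers in wild type mouse A (8038 CPM), and neutrophil markers in wild type mouse D (2.51 CPM) and *Tra2b-cPEko* mouse A (6.51 CPM). *Tshb* itself had no such mouse in either genotype.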

How the results depend on the processing

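No test is given for *Tshb*, and *Tshr*, too low for the filter, was not followed across settings. No other member was called under any setting run, and *Dio3* had no value with a mean count of at least 50. The genes called over the whole table, 30 in edgeR, came to 507 with DESeq2, 58 with upper-quartile factors, 123 with no filter on low counts, 14 with a mean count of at least 50, 11 with limma-voom, 12 without robust estimation and 156 at a threshold of 0.1. Leaving out 1 mouse gave between 3 (without *Tra2b-cPEko* D) and 84 (without wild type C). The other counts were 9, 9 and 22 without wild type A, B and D, and 10, 76 and 9 without *Tra2b-cPEko* A, B and C. With *Tshb* left out, the pathway genes called, 0 in edgeR, came to 2 with DESeq2 and 1 at a threshold of 0.1. Leaving out 1 mouse gave between 0 and 1, where the gene was *Hr* without wild type D. Same-lettered mice did not deviate together (correlations -0.14 to 0.12), so the letters were not taken as pairs. With the letter as a replicate block 67 genes were called over the whole table, and 1 pathway gene (*Lhcgr*) was called with *Tshb* left out. By the longest protein-coding transcript, 3 of 8 genes in wild type and 5 of 8 in *Tra2b-cPEko* kept their place in the order of levels, and by the longest transcript 6 of 8 in each. The causes were not tested. Depth limits *Tshr*, *Cga* and the other genes at a few reads, for which no difference could be read.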
